A study of Mus musculus with 24 samples.

Results

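The comparison set 3 libraries of Ocy454 cells, an immortalized mouse line of osteocyte character, given lysophosphatidic acid (LPA) and 1,25-dihydroxyvitamin D (1,25D) together for 8 h against 3 libraries given vehicle for 8 h. These 6 libraries were chosen by their sample titles from the 24 of the series, which hold 3 libraries for each of 8 groups. The other groups used here were both agents and vehicle at 2 h, and the libraries labelled LPA alone and 1,25D alone at 8 h. All groups share the cell line, and no genotype differs between them. The sources used here give neither doses nor the composition of the vehicle. Whether the 3 libraries of a group stem from different cultures is not stated, so the spread between them may be technical. The p-values rest on that spread, pooled over the groups of all 24 libraries. The titles of the single treatments are in doubt, because both the lettering of the deposited tables and the Cyp24a1 levels go against them. They are therefore called libraries labelled LPA and labelled 1,25D, and the comparison of both agents with vehicle does not depend on that label.

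Osteocytes are the cells embedded in bone matrix. They secrete FGF23, the hormone that lowers blood phosphate, and regulate mineral through pyrophosphate, osteopontin and other factors. The active vitamin D hormone, 1,25D, binds the nuclear receptor encoded by Vdr, which pairs with a retinoid X receptor on DNA and induces its own catabolic enzyme, Cyp24a1. LPA is a lysophospholipid of plasma and matrix that binds G protein-coupled receptors, which feed into the actin cytoskeleton, the ERK kinases and calcium. Transcription factors of the immediate early class, such as those of the Fos, Jun and Egr families, are known to follow ERK activation within minutes to hours.

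Each of the 6 libraries held 33.6 to 33.8 M estimated counts, and 16424 genes passed the filter on low counts. Mitochondrially encoded genes took 12.7, 12.5 and 12.2% of the counts in replicates 1 to 3 of both agents, against 13.6, 16.9 and 10.1% in those of vehicle. Ribosomal protein genes took 5.03% in replicate 2 of both agents and 4.08 to 4.43% in the other 5 libraries. Vehicle replicate 2 was the highest in mitochondrial share of all 24 libraries, and replicate 2 of both agents the highest in ribosomal protein share. Osteocyte markers stood at unequal levels, with Dmp1 low, Sost and Mepe barely detected, and others such as Pdpn, Gja1 and Dstn higher. Dmp1, the acidic matrix protein of osteocytes, had 4.33, 4.802 and 3.21 CPM (counts scaled to library size, in replicates 1, 2 and 3 throughout) with both agents, against 2.16, 2.05 and 1.90 CPM with vehicle. Sost, which encodes the osteocyte inhibitor sclerostin, was at or under 0.226 CPM in each library, and Mepe had 0 counts in the libraries with both agents and 1 in those with vehicle. The type I collagen gene Col1a1 had 4116, 2459 and 5048 CPM with both agents and 3750, 1650 and 4054 CPM with vehicle.

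With both agents, 1567 genes were higher and 1191 lower than with vehicle at an adjusted p of 0.05 or less, which is 9.54% and 7.25% of the genes tested and 16.8% in all. At least 2-fold changes numbered 378 up (2.3% of genes) and 154 down (0.938%). The median log2 fold change over all genes tested was 0.03. Replicate values of the groups did not overlap in 2544 of the 2758 genes called, and in 26.4% of all genes tested. A fit of these 6 libraries alone called 988 genes. It has fewer libraries to share the spread and takes only the spread of these groups. The chi-square per degree of freedom between replicates reached 118.43 with vehicle and 56.17 with both agents at 8 h. In the other groups it reached at most 36.94, in the libraries labelled LPA at 8 h. The fit of all libraries may therefore understate the spread of this comparison. How much each difference between the fits lowered the count was not tested. In bulk RNA, fewer cells of a type and less RNA per cell cannot be told apart. Values after ± are standard errors (SE) of log2 fold changes from edgeR's quasi-likelihood test, and p-values were adjusted by the Benjamini-Hochberg method across the 16424 genes.

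Among receptors and enzymes of the hormone axes, Vdr, the vitamin D receptor gene, had 229, 205 and 236 CPM with both agents, against 134, 112 and 130.1 CPM with vehicle (log2 fold change 0.83 ± 0.08, adjusted p = 5.82e-08). The 3 libraries with both agents lay above the 3 with vehicle. Cyp24a1, the 24-hydroxylase that inactivates 1,25D, had 35, 28 and 24 counts with both agents, against 1, 0 and 0 counts with vehicle. The ratio of summed counts was 91.2 with a 95% exact interval from 15.9 to 3643 that covers counting error only, so Cyp24a1 rose, at a level that stayed low. Fgf23 had 5, 0 and 1 counts with both agents, against 0, 1 and 2 counts with vehicle. The ratio was 2.10 with an interval from 0.448 to 12.96, and without replicate 1 of both agents it was 0.527. These few and uneven counts cannot tell whether Fgf23 differed. Il12a, which encodes the p35 subunit shared by the interleukins IL-12 and IL-35, had 1.65, 1.29 and 1.29 CPM with both agents and 0.473, 0.279 and 0.699 CPM with vehicle (log2 fold change 1.53 ± 0.36, adjusted p = 0.00412).

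Of 21 tested genes in a list of the vitamin D receptor and its known targets, 10 were higher and none lower, with a median log2 fold change of 0.67 beside 0.03 over all genes. For this and the later lists, the shares over all genes tested were 9.54% higher and 7.25% lower. The lists were chosen with earlier results of these data known, so their counts and medians are descriptive. Apart from Cyp24a1 and Mmp13, the largest rises were in Spp1 and Enpp1. Spp1, which encodes osteopontin, a phosphoprotein that binds hydroxyapatite and integrins, had 3756, 4442 and 3403 CPM with both agents, against 256, 295 and 265 CPM with vehicle (log2 fold change 3.83 ± 0.11, adjusted p = 1.21e-16). Enpp1, the ectoenzyme that generates the mineralization inhibitor pyrophosphate, had 70.1, 82.8 and 67.7 CPM with both agents and 7.51, 7.04 and 4.39 CPM with vehicle (log2 fold change 3.54 ± 0.17, adjusted p = 1.35e-12). Both genes thus stood more than 9-fold higher in each library with both agents than in any with vehicle. Tnfsf11, the osteoclast differentiation factor RANKL, had 2.59, 2.03 and 2.31 CPM with both agents and 0.502, 0.5896 and 0.363 CPM with vehicle (log2 fold change 2.25 ± 0.31, adjusted p = 1.29e-05). Its decoy receptor Tnfrsf11b, osteoprotegerin, had 1.43, 2.45 and 1.38 CPM with both agents and 2.28, 1.96 and 1.82 CPM with vehicle and did not pass the test (log2 fold change -0.20 ± 0.30, adjusted p = 0.74). The other risers of the list were Vdr, Cyp24a1, Mmp13, Cebpb, Lrp5, Cdkn1a and Atp2b1. The call for Lrp5 (log2 fold change 0.73) was lost when replicate 1 or 3 of both agents or vehicle replicate 1 or 2 was left out, with values between 0.43 and 0.80.

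In a list on FGF23 production and phosphate handling, 4 of 16 tested genes were higher and 2 lower. Dmp1 rose (log2 fold change 1.01 ± 0.17, adjusted p = 0.000157), as did Enpp1, Gpd2 and Hif1a. Fgfr2, an FGF receptor, fell to 22.9, 20.6 and 23.5 CPM with both agents, against 48.2, 39.01 and 44.8 CPM with vehicle (log2 fold change -0.98 ± 0.08, adjusted p = 1.25e-08). Alpl, the alkaline phosphatase that removes pyrophosphate, fell to 1.13, 0.902 and 1.02 CPM with both agents, against 2.39, 1.27 and 2.12 CPM with vehicle (log2 fold change -0.92 ± 0.26, adjusted p = 0.0173), so the enzyme that makes pyrophosphate and the one that hydrolyses it moved in opposite directions. The call for Alpl was lost without replicate 2 of both agents (-0.85) and without vehicle replicate 1 (-0.75) or 3 (-0.85).

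Among LPA receptors and enzymes of LPA metabolism, 4 of 20 tested genes were higher and 4 lower, with a median of 0.08. Lpar1, the LPA receptor with the highest CPM in this line, fell to 31.6, 39.2 and 32.3 CPM with both agents, against 49.3, 53.1 and 43.96 CPM with vehicle (log2 fold change -0.50 ± 0.09, adjusted p = 0.000232). Enpp2, which encodes autotaxin, the secreted enzyme that produces LPA, fell to 23.6, 26.3 and 23.3 CPM with both agents, against 30.6, 38.4 and 30.6 CPM with vehicle (log2 fold change -0.45 ± 0.09, adjusted p = 0.0017). Plpp3, an ectophosphatase that degrades LPA, rose (log2 fold change 0.64 ± 0.10, adjusted p = 7.95e-05) and its relative Plpp1 fell (log2 fold change -0.35 ± 0.08, adjusted p = 0.0026). Lpar2 had 22.4, 15.4 and 23.9 CPM with both agents and 28.9, 24.1 and 26.6 CPM with vehicle and did not pass the test. Lpar4 had 11.2, 13.2 and 10.6 CPM with both agents and 13.9, 18.0 and 13.4 CPM with vehicle and did not pass either. Both receptor and source thus fell by less than 2-fold, while phosphatases of the same family went opposite ways.

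**Figure D1:**
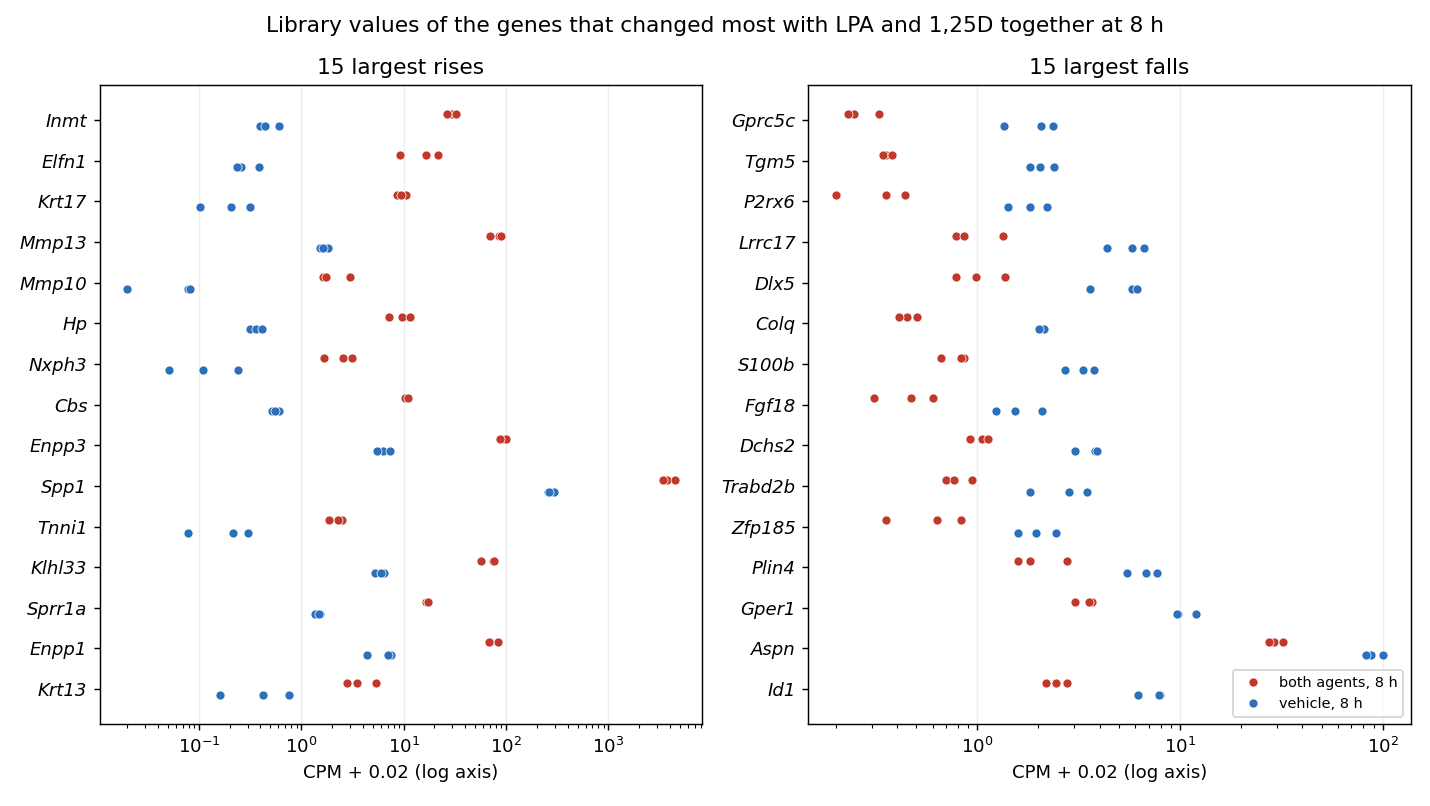
CPM plus 0.02 on a log axis for the 15 largest rises (left) and falls (right) at 8 h, with 3 libraries given both agents in red and 3 given vehicle in blue. No gene has overlapping groups, which the choice of genes required, and Spp1 is the most abundant riser at 3403 to 4442 CPM with both agents.

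Leading genes had to be called, reach a mean of 1 CPM over both groups and have groups that do not overlap. The 15 largest rises were Inmt, Elfn1, Krt17, Mmp13, Mmp10, Hp, Nxph3, Cbs, Enpp3, Spp1, Tnni1, Klhl33, Sprr1a, Enpp1 and Krt13, with log2 fold changes between 3.19 and 5.99. Inmt, an amine N-methyltransferase, had 29.4, 32.5 and 26.8 CPM with both agents, against 0.591, 0.372 and 0.419 CPM with vehicle (log2 fold change 5.99 ± 0.26, adjusted p = 1.85e-13). Elfn1, a leucine-rich repeat membrane protein known from synapses, had 16.6, 9.15 and 21.9 CPM with both agents and 0.236, 0.217 and 0.363 CPM with vehicle (log2 fold change 5.83 ± 0.42, adjusted p = 1.16e-09). Both genes were under 1 CPM in each vehicle library. Enpp3, an ectonucleotide pyrophosphatase related to Enpp1, had 95.2, 100.3 and 87.4 CPM with both agents, against 6.33, 7.32 and 5.48 CPM with vehicle (log2 fold change 3.89 ± 0.12, adjusted p = 4.09e-16). Cbs, cystathionine beta-synthase, which commits homocysteine to cysteine synthesis, had 10.5, 10.4 and 10.9 CPM with both agents and 0.502, 0.5896 and 0.531 CPM with vehicle (log2 fold change 4.29 ± 0.18, adjusted p = 9.82e-14). Hp, the haemoglobin-binding acute phase protein haptoglobin, had 9.71, 11.6 and 7.22 CPM with both agents and 0.296, 0.341 and 0.391 CPM with vehicle (log2 fold change 4.78 ± 0.38, adjusted p = 6.30e-09). Each of these 5 genes was at least 10-fold higher in any library with both agents than in any with vehicle.

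Several other leading rises were in genes best known from tissues other than bone. Krt17, an epithelial keratin, had 8.67, 10.6 and 9.32 CPM with both agents, against 0.296, 0.186 and 0.0838 CPM with vehicle (log2 fold change 5.64 ± 0.36, adjusted p = 1.30e-10). Krt13, another, had 2.81, 5.38 and 3.51 CPM with both agents and 0.739, 0.403 and 0.1397 CPM with vehicle (log2 fold change 3.19 ± 0.40, adjusted p = 4.60e-06). Sprr1a, a small proline-rich protein of the cornified envelope, had 16.6, 17.2 and 17.1 CPM with both agents and 1.51, 1.33 and 1.48 CPM with vehicle (log2 fold change 3.55 ± 0.27, adjusted p = 2.33e-09). Keratin and Sprr genes belong to multigene families, and how the authors' quantification shared reads among their members is not known, so these values are uncertain. Tnni1, the slow-muscle troponin I, had 2.503, 2.29 and 1.83 CPM with both agents and 0.0591, 0.279 and 0.196 CPM with vehicle (log2 fold change 3.61 ± 0.44, adjusted p = 2.57e-06). Nxph3, a neurexin ligand, had 3.11, 1.64 and 2.55 CPM with both agents and 0.0887, 0.03103 and 0.224 CPM with vehicle (log2 fold change 4.34 ± 0.47, adjusted p = 6.06e-07). Klhl33, a kelch-like protein, had 73.9, 57.1 and 76.0 CPM with both agents and 6.38, 5.21 and 5.95 CPM with vehicle (log2 fold change 3.56 ± 0.13, adjusted p = 1.08e-14). Of 5 tested skeletal muscle markers, none passed the test in either direction.

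Matrix proteases were split. Of 24 tested genes of proteases and inhibitors, 7 were higher and 4 lower, with a median near 0. Mmp13, the collagenase of bone and cartilage, had 85.9, 90.2 and 70.4 CPM with both agents, against 1.803, 1.52 and 1.62 CPM with vehicle (log2 fold change 5.63 ± 0.21, adjusted p = 1.82e-14). Mmp10, stromelysin-2, had 1.62, 2.96 and 1.71 CPM with both agents and 0.0591, 0.0621 and 0 CPM with vehicle (log2 fold change 5.60 ± 0.93, adjusted p = 0.000148). These metalloproteases changed by far the most in the list. Timp1, a secreted inhibitor of metalloproteases, rose to 813, 1011 and 778 CPM with both agents, against 211, 229.8 and 207 CPM with vehicle (log2 fold change 2.01 ± 0.10, adjusted p = 2.04e-12). Plau, urokinase, fell to 10.3, 13.1 and 10.6 CPM with both agents, against 19.8, 22.5 and 19.0 CPM with vehicle (log2 fold change -0.85 ± 0.10, adjusted p = 3.71e-06), and the gelatinase gene Mmp2 fell slightly (log2 fold change -0.32 ± 0.07, adjusted p = 0.00313).

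The promoters of Mmp13, Mmp10 and Sprr1a are shown because, with that of Krt13, they held the AP-1 core motif, the site that Fos and Jun dimers are known to bind. Of those families, Fosl1, Fosl2, Jun, Junb and Jund were called higher in the same libraries, and Fos and Fosb were not called. A role of AP-1 in these genes was not tested. Sequences are RefSeq promoters on GRCm38.p6, 250 bases before to 50 after the start, given 5′ to 3′ on the gene's strand, with the motif TGAGTCA or its reverse complement TGACTCA in capitals. The Mmp13 window is chr9:7272264-7272563 on the plus strand, with the motif's first base at -35 from the start. The Mmp10 window is chr9:7502092-7502391 on the plus strand, with the motif at -63. The Sprr1a window is chr3:92485832-92486131 on the minus strand, with the motif at -146 and at -116.
Mmp13: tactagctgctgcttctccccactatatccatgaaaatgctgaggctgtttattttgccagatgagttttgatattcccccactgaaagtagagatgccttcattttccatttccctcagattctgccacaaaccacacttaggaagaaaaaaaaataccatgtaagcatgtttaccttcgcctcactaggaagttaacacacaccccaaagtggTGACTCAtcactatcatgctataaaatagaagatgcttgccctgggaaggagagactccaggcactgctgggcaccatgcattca
Mmp10: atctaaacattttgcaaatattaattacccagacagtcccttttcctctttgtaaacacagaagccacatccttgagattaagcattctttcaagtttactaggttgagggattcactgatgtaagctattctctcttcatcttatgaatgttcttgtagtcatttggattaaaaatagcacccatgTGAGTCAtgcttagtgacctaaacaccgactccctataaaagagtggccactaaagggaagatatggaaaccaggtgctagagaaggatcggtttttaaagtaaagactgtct
Sprr1a: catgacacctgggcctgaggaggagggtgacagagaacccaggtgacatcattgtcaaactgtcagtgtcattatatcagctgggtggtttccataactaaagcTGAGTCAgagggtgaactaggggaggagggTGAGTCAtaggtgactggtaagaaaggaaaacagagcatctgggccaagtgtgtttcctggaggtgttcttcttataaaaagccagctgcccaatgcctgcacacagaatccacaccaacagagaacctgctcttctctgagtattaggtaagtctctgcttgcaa

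Of the 15 leading rises, 12 had at least 1 promoter in the table, 16 promoters in all, of which 4, each of another gene, held the motif. Of the 15 leading falls, 10 had a promoter each and 0 of these held it. The motif, searched on both strands, stands in 1709 of all 32851 promoters of this length, or 5.2%. A match describes the letters only, and binding was not measured.

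The 15 largest falls by the same criteria were smaller, between -2.93 and -1.58 on the log2 scale, and apart from Aspn were in genes at or under 12.0 CPM in each vehicle library. They were Gprc5c, Tgm5, P2rx6, Lrrc17, Dlx5, Colq, S100b, Fgf18, Dchs2, Trabd2b, Zfp185, Plin4, Gper1, Aspn and Id1. Aspn, asporin, a small leucine-rich proteoglycan of collagen matrix, had 29.1, 32.3 and 27.4 CPM with both agents, against 87.3, 100.3 and 82.8 CPM with vehicle (log2 fold change -1.61 ± 0.09, adjusted p = 1.70e-11). Dlx5, a homeobox factor of osteoblast differentiation, had 0.763, 0.967 and 1.35 CPM with both agents and 5.79, 3.57 and 6.09 CPM with vehicle (log2 fold change -2.32 ± 0.25, adjusted p = 5.89e-07). Its linked relative Dlx6 also fell (log2 fold change -1.79 ± 0.52, adjusted p = 0.0198), although that call was lost without replicate 1 (-1.63) or 3 (-1.73) of both agents or vehicle replicate 1 (-1.71). Lrrc17, a secreted protein reported to restrain osteoclast formation, had 0.763, 1.32 and 0.839 CPM with both agents and 5.74, 6.64 and 4.36 CPM with vehicle (log2 fold change -2.52 ± 0.27, adjusted p = 5.99e-07). Trabd2b, a membrane protease that cleaves Wnt ligands, had 0.916, 0.677 and 0.7495 CPM with both agents and 2.81, 1.80 and 3.44 CPM with vehicle (log2 fold change -1.78 ± 0.30, adjusted p = 0.000191). Asporin, Dlx5 and Lrrc17 are each known from bone-forming or connective tissue cells.

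The remaining falls included receptors and channels. Gper1, a membrane receptor for oestrogen, had 3.66, 3.54 and 2.998 CPM with both agents, against 9.76, 11.98 and 9.59 CPM with vehicle (log2 fold change -1.62 ± 0.18, adjusted p = 6.53e-07). Gprc5c, an orphan receptor, had 0.305, 0.226 and 0.2099 CPM with both agents and 1.33, 2.05 and 2.35 CPM with vehicle (log2 fold change -2.93 ± 0.41, adjusted p = 1.69e-05), and P2rx6, an ATP-gated channel subunit, had 0.336, 0.419 and 0.1799 CPM with both agents and 2.19, 1.80 and 1.397 CPM with vehicle (log2 fold change -2.52 ± 0.37, adjusted p = 3.68e-05). Gprc5a, of the same receptor family as Gprc5c, went the other way, with 279.6, 289 and 273 CPM with both agents, against 67.99, 62.8 and 61.7 CPM with vehicle (log2 fold change 2.13 ± 0.06, adjusted p = 8.35e-17). The growth factor Fgf18 had 0.5799, 0.2901 and 0.4497 CPM with both agents and 1.51, 1.21 and 2.07 CPM with vehicle (log2 fold change -1.85 ± 0.32, adjusted p = 0.000259). Tgm5, Colq, S100b, Dchs2, Zfp185 and Plin4 were at 2.76 CPM or less in each library with both agents, with log2 fold changes between -2.59 (Tgm5) and -1.69 (Plin4).

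Genes of osteoblasts and bone matrix went both ways, with 5 of 28 tested higher and 8 lower and a median log2 fold change of -0.16. Omd, Fmod and Ogn, small leucine-rich proteoglycans like Aspn, were lower. Omd, osteomodulin, had 16.7, 20.3 and 15.7 CPM with both agents, against 50.6, 58.2 and 45.5 CPM with vehicle (log2 fold change -1.55 ± 0.12, adjusted p = 2.62e-09). Fmod, fibromodulin, had 796, 692 and 871 CPM with both agents and 1546, 1202 and 1533 CPM with vehicle (log2 fold change -0.86 ± 0.12, adjusted p = 1.46e-05), and Ogn, osteoglycin, also fell (log2 fold change -0.78 ± 0.10, adjusted p = 4.22e-06). Runx2, the master transcription factor of osteoblasts, fell to 37.4, 22.8 and 39.1 CPM with both agents, against 57.3, 37.3 and 57.1 CPM with vehicle (log2 fold change -0.61 ± 0.18, adjusted p = 0.0216), a call that was lost without replicate 2 of both agents (-0.41) and without vehicle replicate 1 or 3 (-0.52 each). Without vehicle replicate 1, 5 genes of the list were lower. In the other direction, Mgp, the matrix Gla protein that inhibits calcification, had 1018, 1086 and 872 CPM with both agents and 350.1, 384 and 348 CPM with vehicle (log2 fold change 1.46 ± 0.10, adjusted p = 9.07e-10). The collagen cross-linking enzymes Lox (log2 fold change 1.37 ± 0.12, adjusted p = 2.86e-08) and Loxl2 (log2 fold change 3.17 ± 0.23, adjusted p = 1.33e-09) rose as well. Bglap and Sp7 did not pass, and Col1a1 did not either (log2 fold change 0.30 ± 0.25, adjusted p = 0.5).

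In the BMP list, 5 of 15 tested genes were lower and 2 higher, of which 1 was higher without replicate 1 or 3 of both agents or vehicle replicate 1 or 2. Id1, Id2 and Id3, known targets of BMP signalling that inhibit helix-loop-helix factors, were lower. Id2 had 23.4, 27.2 and 24.5 CPM with both agents, against 65.6, 69.3 and 63.3 CPM with vehicle (log2 fold change -1.40 ± 0.08, adjusted p = 2.23e-11), Id3 had 71.9, 81.2 and 73.3 CPM with both agents and 132, 137 and 133 CPM with vehicle (log2 fold change -0.83 ± 0.09, adjusted p = 7.54e-07), and Id1 fell by 1.58 on the log2 scale. In the TGF-beta and activin list, 10 of 22 tested genes were higher and 3 lower. Fst, follistatin, the secreted antagonist of activin, had 93.3, 88.05 and 97.1 CPM with both agents, against 11.5, 12.5 and 12.02 CPM with vehicle (log2 fold change 2.95 ± 0.07, adjusted p = 3.97e-17), while Inhba, the activin A subunit, fell to 20.9, 19.3 and 20.5 CPM with both agents, against 27.7, 35.7 and 27.2 CPM with vehicle (log2 fold change -0.58 ± 0.12, adjusted p = 0.00145). Ligand and antagonist thus moved apart at 8 h. Tgfb2 fell (log2 fold change -0.72 ± 0.08, adjusted p = 1.33e-06) and the latency-binding genes Ltbp1 (log2 fold change 0.73 ± 0.07, adjusted p = 4.95e-08) and Ltbp2 (log2 fold change 2.02 ± 0.25, adjusted p = 4.51e-06) rose.

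In the Wnt list, 6 of 34 tested genes were higher and 4 lower, beside 9.54% and 7.25% of all genes tested. The median was 0.04. Wnt7b, a Wnt ligand, rose to 1.16, 0.548 and 1.11 CPM with both agents, against 0.266, 0.03103 and 0.196 CPM with vehicle (log2 fold change 2.48 ± 0.55, adjusted p = 0.00248). Lgr6, a receptor for the Wnt-potentiating R-spondins, rose to 6.35, 5.77 and 7.58 CPM with both agents, against 0.769, 0.683 and 1.12 CPM with vehicle (log2 fold change 2.93 ± 0.34, adjusted p = 1.66e-06). Lef1, a transcription factor and target of the pathway, fell to 1.89, 1.51 and 2.099 CPM with both agents, against 6.18, 4.47 and 5.53 CPM with vehicle (log2 fold change -1.55 ± 0.21, adjusted p = 9.71e-06), and the feedback ligase Rnf43 fell as well (log2 fold change -1.90 ± 0.36, adjusted p = 0.000542). Of the secreted frizzled-related antagonists, Sfrp4 rose (log2 fold change 2.76 ± 0.47, adjusted p = 0.000179) and Sfrp2 fell (log2 fold change -1.21 ± 0.21, adjusted p = 0.000185). Without vehicle replicate 2, 7 genes of this list were lower. In the Notch list, 2 of 13 tested genes were higher, the receptors Notch2 and Notch3, and 2 were lower, the ligand Jag1 and the target Hes1. Without replicate 2 of both groups Hes1 was no longer called (-0.36, edgeR, adjusted p = 0.143). The call for Notch3 (log2 fold change 0.65) was lost without replicate 1 (0.60) or 3 (0.43) of both agents or vehicle replicate 2 (0.38).

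**Figure D2:**
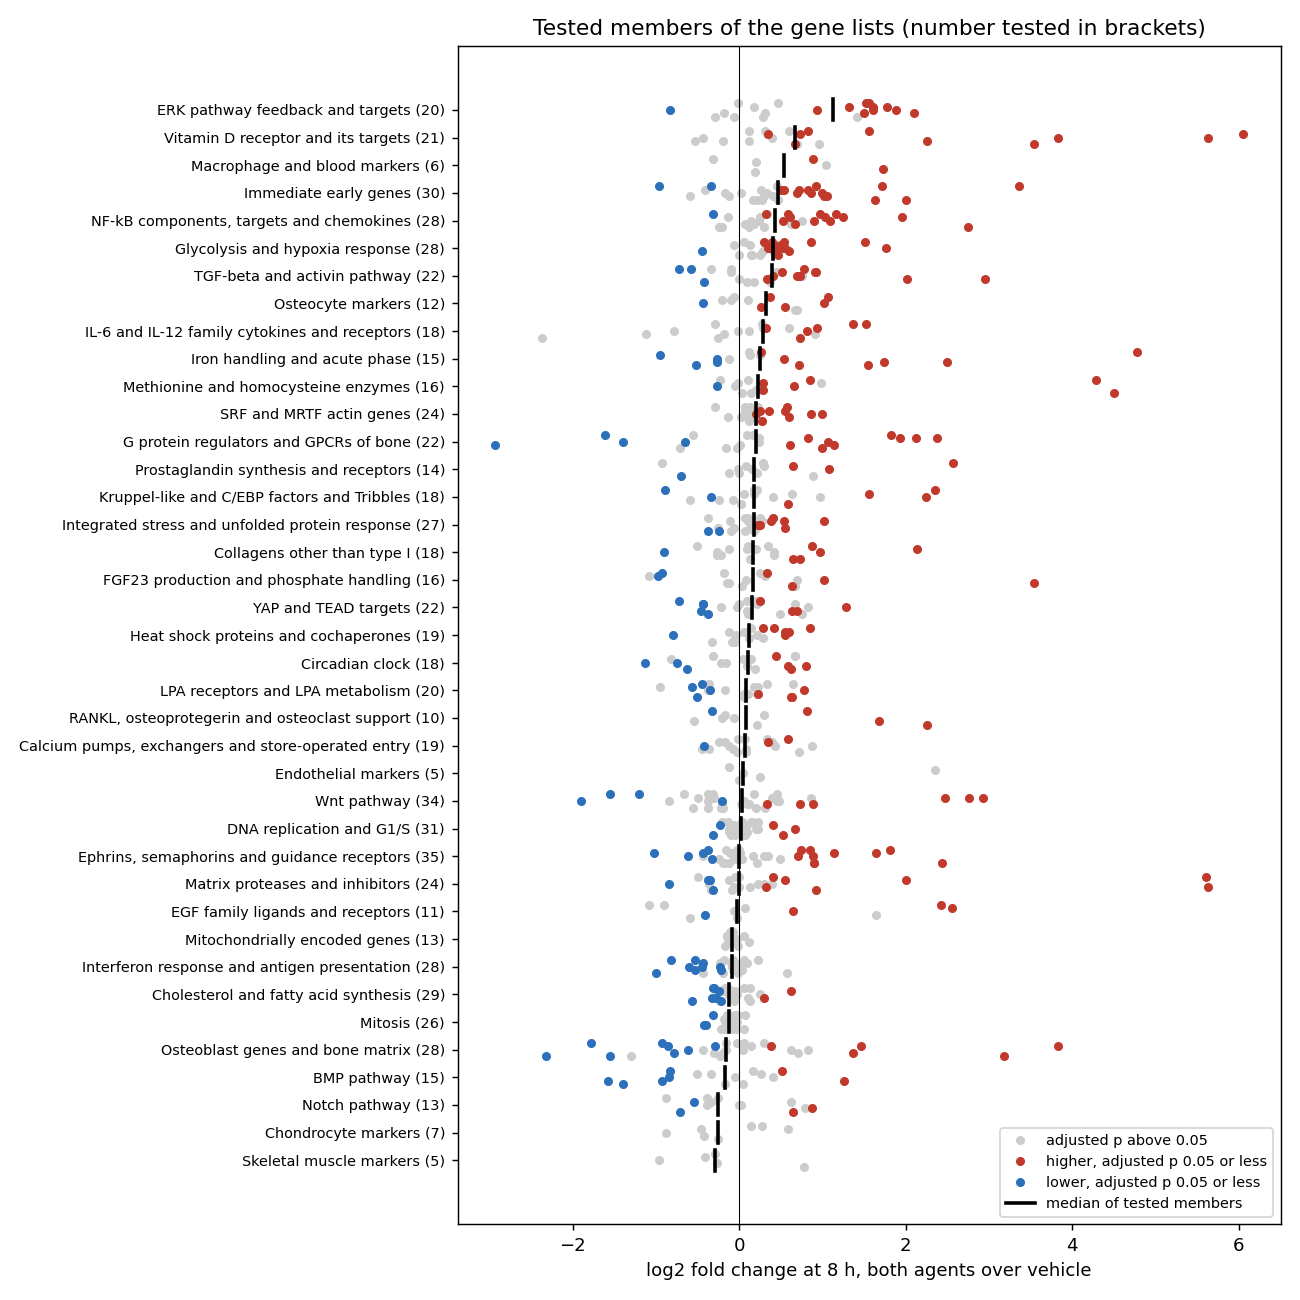
Log2 fold changes at 8 h, both agents over vehicle, for the tested members of each list with at least 5 of them (brackets: number tested), coloured red where higher and blue where lower at an adjusted p of 0.05 or less, with a black bar at the median. ERK feedback genes have the highest median, 1.13, and the mitochondrially encoded genes lie between -0.17 and 0.12.

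Of 20 tested genes of ERK feedback and targets, 10 were higher and 1 lower, with a median of 1.13, the highest of the lists with at least 5 tested members. The lists were chosen with earlier results of these data known, so this rank describes them and tests nothing. Dusp6, the phosphatase that inactivates ERK, had 98.4, 107 and 89.8 CPM with both agents, against 21.5, 24.3 and 23.2 CPM with vehicle (log2 fold change 2.10 ± 0.08, adjusted p = 3.05e-14). Etv5, an ETS factor downstream of ERK, had 41.99, 36.2 and 39.9 CPM with both agents and 11.8, 11.8 and 10.8 CPM with vehicle (log2 fold change 1.78 ± 0.08, adjusted p = 1.64e-13). Il1rl1, the receptor of interleukin 33, had 359.7, 408 and 329 CPM with both agents and 97.3, 121 and 79.5 CPM with vehicle (log2 fold change 1.88 ± 0.11, adjusted p = 5.31e-11), and Errfi1, a feedback inhibitor of the EGF receptor, also rose (log2 fold change 1.60 ± 0.08, adjusted p = 2.98e-12). Spry1, an inhibitor of the pathway, was the member that fell (log2 fold change -0.84 ± 0.24, adjusted p = 0.0189), and that call was lost without replicate 2 of both agents (-0.62) and without vehicle replicate 1 (-0.76) or 3 (-0.66). Without vehicle replicate 2, 2 genes of the list were lower. Among EGF family genes, Ereg, the ligand epiregulin, had 8.76, 10.02 and 8.06 CPM with both agents and 1.803, 1.43 and 1.34 CPM with vehicle (log2 fold change 2.55 ± 0.20, adjusted p = 5.00e-09), and Areg (log2 fold change 2.43 ± 0.59, adjusted p = 0.00544) and Egfr (log2 fold change 0.64 ± 0.07, adjusted p = 8.94e-07) rose too, so 3 of 11 tested genes were higher, with Nrg1 the 1 that was lower (-0.41, and -0.35 and no longer called without replicate 2 of both agents). In the EGF list 2 were lower without replicate 3 of both agents or vehicle replicate 2.

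Immediate early genes had 14 of 30 tested members higher and 2 lower at 8 h, with a median of 0.46 that lay between 0.27 (without vehicle replicate 2) and 0.65 (without vehicle replicate 3). Fosl1, the Fos-related AP-1 subunit, had 60.8, 53.9 and 59.7 CPM with both agents, against 21.8, 19.1 and 15.7 CPM with vehicle (log2 fold change 1.63 ± 0.09, adjusted p = 1.56e-11). Jun, its dimer partner, had 62.1, 42.1 and 77.8 CPM with both agents and 15.9, 9.28 and 20.2 CPM with vehicle (log2 fold change 2.00 ± 0.23, adjusted p = 1.43e-06), and Junb had 236, 152 and 261 CPM with both agents and 72.1, 37.8 and 87.6 CPM with vehicle (log2 fold change 1.71 ± 0.23, adjusted p = 9.05e-06). In Jun and Junb, as in Cebpb and Cebpd, replicate 2 was the lowest of its group in both groups. Without replicate 2 of both groups the list had 14 higher and 4 lower, and without vehicle replicate 2 alone it had 10 higher and 4 lower. In the fit of the 6 libraries alone 4 were higher and 1 lower. Npas4, an activity-induced factor, had 23 counts in all with both agents and 2 with vehicle, a ratio of 12.1 with an exact interval from 2.98 to 105.5 (counting error only). Egr2, a zinc-finger factor of the same class, fell to 7.14, 7.35 and 8.42 CPM with both agents, against 15.6, 14.0 and 15.03 CPM with vehicle (log2 fold change -0.96 ± 0.11, adjusted p = 9.08e-07). Fos (log2 fold change 0.34 ± 0.18, adjusted p = 0.241) and Egr1 (log2 fold change 0.17 ± 0.24, adjusted p = 0.721) did not pass.

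Of 24 tested targets of SRF and its MRTF coactivators, 9 were higher (4 in the fit of the 6 libraries alone) and none lower, with a median of 0.20 that lay between 0.13 and 0.27 when single libraries were left out. Tagln, transgelin, had 503, 609.6 and 465 CPM with both agents, against 281, 316 and 268 CPM with vehicle (log2 fold change 0.87 ± 0.10, adjusted p = 2.04e-06). Acta2, smooth muscle actin, rose less (log2 fold change 0.35 ± 0.08, adjusted p = 0.0046). YAP and TEAD targets went both ways, with 4 of 22 higher and 5 lower. In that list the matricellular gene Ccn2 rose to 18.01, 17.6 and 18.4 CPM with both agents, against 8.75, 6.30 and 7.21 CPM with vehicle (log2 fold change 1.28 ± 0.10, adjusted p = 7.15e-09), while its relative Ccn1 fell to 169, 149 and 179 CPM with both agents, against 241, 183 and 249 CPM with vehicle (log2 fold change -0.44 ± 0.11, adjusted p = 0.00555). Without vehicle replicate 1, 2 genes of that list were higher.

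In the NF-kB and chemokine list, 13 of 28 tested genes were higher and 1 lower, with a median of 0.43. Traf1, a target and adaptor of the pathway, had 7.54, 8.61 and 6.62 CPM with both agents, against 1.89, 1.77 and 2.18 CPM with vehicle (log2 fold change 1.96 ± 0.16, adjusted p = 1.11e-08). Nfkbiz (log2 fold change 1.17 ± 0.08, adjusted p = 5.51e-10) and the chemokine Cx3cl1 (log2 fold change 1.09 ± 0.19, adjusted p = 0.000223) also rose. Ccl20, a chemokine that attracts lymphocytes, had 0.6104, 0.5801 and 0.4797 CPM with both agents and 0.0591, 0.186 and 0 CPM with vehicle (log2 fold change 2.75 ± 0.66, adjusted p = 0.00494), the largest rise of that list. Tnip1 was the member that fell (log2 fold change -0.32 ± 0.07, adjusted p = 0.00167), and 2 were lower without replicate 2 of both agents or vehicle replicate 2. In the IL-6 and IL-12 family list, 6 of 18 were higher and none lower (1 lower without vehicle replicate 2 or 3), among them the ligand Clcf1 (log2 fold change 1.37 ± 0.16, adjusted p = 2.09e-06), the receptor subunit Osmr (log2 fold change 0.73 ± 0.07, adjusted p = 1.43e-07) and Il12a. Il34, a ligand of the macrophage colony-stimulating factor receptor that supports osteoclast precursors, had 20.2, 16.7 and 17.7 CPM with both agents, against 5.56, 5.55 and 5.95 CPM with vehicle (log2 fold change 1.68 ± 0.14, adjusted p = 1.80e-08), and Csf1, the other ligand of that receptor, also rose (log2 fold change 0.82 ± 0.11, adjusted p = 1.62e-05).

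Guidance genes and enzymes of lipid mediators were among the other rises. Sema5a, a guidance protein, had 96.1, 74.2 and 96.6 CPM with both agents, against 27.9, 21.5 and 26.7 CPM with vehicle (log2 fold change 1.81 ± 0.14, adjusted p = 2.92e-09). In its list of ephrins, semaphorins and guidance genes, 10 of 35 were higher and 5 lower, of which 3 were lower without replicate 2 of both agents or vehicle replicate 3. Ptges, the inducible prostaglandin E synthase, had 3.48, 3.96 and 3.51 CPM with both agents and 0.6799, 0.652 and 0.503 CPM with vehicle (log2 fold change 2.57 ± 0.30, adjusted p = 2.03e-06), and Ptgs2, cyclooxygenase-2, which supplies its substrate, rose as well (log2 fold change 1.08 ± 0.10, adjusted p = 5.45e-08). In the list of prostaglandin synthesis and receptors, 3 of 14 tested genes were higher and 1 lower. The latter was the receptor gene Ptger4 (log2 fold change -0.69 ± 0.20, adjusted p = 0.0159). None was lower without replicate 3 of both agents or vehicle replicate 3. Sphk1, sphingosine kinase, had 30.1, 26.8 and 29.9 CPM with both agents and 8.66, 7.11 and 8.83 CPM with vehicle (log2 fold change 1.82 ± 0.11, adjusted p = 3.34e-11), and the receptor of its product, S1pr1, also rose (log2 fold change 1.13 ± 0.09, adjusted p = 4.66e-09). Sphk1 and S1pr1 were thus both higher. Their relatives S1pr2 (log2 fold change 0, adjusted p = 0.989) and Sphk2 (0.22, adjusted p = 0.45) were not called in edgeR's fit without replicate 2 of both groups. Rgs3, which speeds the shut-off of G proteins, rose (log2 fold change 1.93 ± 0.11, adjusted p = 2.12e-11) and Rgs4 fell (log2 fold change -1.39 ± 0.25, adjusted p = 0.000362). The kinin receptor gene Bdkrb1 had 1.25, 1.58 and 1.05 CPM with both agents and 0.118, 0.341 and 0.279 CPM with vehicle (log2 fold change 2.38 ± 0.37, adjusted p = 7.11e-05), and the list of G protein regulators and receptors had 9 of 22 higher and 4 lower.

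Metabolic genes gave smaller changes at high levels. Of 28 tested genes of glycolysis and the hypoxia response, 15 were higher and 1 lower, with a median of 0.40. Vegfa, the angiogenic growth factor, had 99.5, 74.5 and 114 CPM with both agents, against 30.1, 18.6 and 35.99 CPM with vehicle (log2 fold change 1.76 ± 0.18, adjusted p = 2.63e-07). Enzymes of the glycolytic path changed less, such as Pgk1, phosphoglycerate kinase, with 1119, 1429 and 1039 CPM with both agents and 804, 943 and 779.8 CPM with vehicle (log2 fold change 0.51 ± 0.11, adjusted p = 0.00305). Pfkm, the muscle-type phosphofructokinase, fell (log2 fold change -0.45 ± 0.08, adjusted p = 0.000283). In the fit of the 6 libraries alone 2 were higher and none lower. Many glycolytic genes have processed pseudogenes that can share reads. Replicate 2 of both agents held the highest Pgk1, Eno1 and Ldha, and without it 11 members were higher, with a median of 0.28, while Aldoa (0.26), Pkm (0.21), Pfkl (0.22) and Bnip3 (0.39) were no longer called. Aldoa (0.39), Pkm (0.31) and Pfkl (0.35) were also not called without vehicle replicate 1, and Pfkl (0.34 and 0.35) without vehicle replicate 2 or 3.

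In one-carbon and homocysteine metabolism, 6 of 16 tested genes were higher and 1 lower, and none was lower without replicate 2 of both agents or vehicle replicate 1 or 3. Bhmt, which remethylates homocysteine with betaine, had 1.495, 1.68 and 1.05 CPM with both agents, against 0.0591, 0 and 0.112 CPM with vehicle (log2 fold change 4.50 ± 0.66, adjusted p = 3.07e-05), next to the rise of Cbs, which uses the same substrate. Srm, spermidine synthase, rose to 141, 146 and 135 CPM with both agents, against 80.6, 71.8 and 81.7 CPM with vehicle (log2 fold change 0.85 ± 0.07, adjusted p = 1.31e-08). In iron handling and the acute phase, 7 of 15 were higher and 4 lower. The siderophore-binding Lcn2 had 6.65, 9.22 and 6.39 CPM with both agents and 2.099, 3.103 and 1.48 CPM with vehicle (log2 fold change 1.74 ± 0.26, adjusted p = 3.44e-05), and the ferrireductase Steap4 rose (log2 fold change 2.50 ± 0.32, adjusted p = 6.17e-06), whereas the iron exporter Slc40a1 fell (log2 fold change -0.95 ± 0.23, adjusted p = 0.0059). Without vehicle replicate 1, 2 genes of the iron list were lower. Cholesterol and fatty acid synthesis had 2 of 29 higher and 7 lower, with Scd2, a fatty acid desaturase, at 498, 554 and 527 CPM with both agents and 817, 760.0 and 760.3 CPM with vehicle (log2 fold change -0.57 ± 0.06, adjusted p = 2.04e-07). In the stress response list 7 of 27 were higher, led by Ddit4, an inhibitor of mTORC1 (log2 fold change 1.02 ± 0.11, adjusted p = 2.70e-07), and 2 were lower. None was lower without replicate 1 or 3 of both agents or vehicle replicate 3, and 1 was without vehicle replicate 1 or 2.

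Interferon-response genes were among the few groups with falls and no rises. Of 28 tested, 9 were lower and none higher, with a median of -0.09 beside 0.03 over all genes. Ifit3, an interferon-induced antiviral protein, had 7.48, 6.58 and 7.195 CPM with both agents, against 12.9, 16.4 and 12.97 CPM with vehicle (log2 fold change -0.99 ± 0.12, adjusted p = 3.47e-06). Vehicle replicate 2 had the highest Ifit3 of the 6 libraries, and without it 8 members were lower and 1 higher. The fit of the 6 libraries alone had 3 lower and none higher. In mitosis, 3 of 26 genes were lower and none higher, Plk1, Ccnb2 and Mki67, each by less than 0.5 on the log2 scale, and in DNA replication 3 of 31 were higher and 2 lower. Over all genes tested, 9.54% were higher and 7.25% lower. Without replicate 2 of both agents 7 mitotic genes were lower, and without its replicate 1 Mki67 was no longer called (-0.36). Among clock genes, Tef, a PAR-domain transcription factor driven by the clock, fell (log2 fold change -1.13 ± 0.10, adjusted p = 1.80e-08), in a list with 4 of 18 higher and 3 lower. Leaving out replicate 1 or 2 of both agents, or vehicle replicate 1 or 3, left 1 clock gene lower.

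Of 13 mitochondrially encoded genes none passed, with log2 fold changes between -0.17 and 0.12. Heat shock genes had 6 of 19 higher and 1 lower, with Hspa1b uncertain because it has a near-identical copy and its call (0.85) was lost without replicate 1 (0.84) or 3 (0.52) of both agents or vehicle replicate 1 (0.93) or 2 (0.55), and calcium pumps and channels had 2 of 19 higher and 1 lower. In the calcium list 1 was higher without replicate 1 or 3 of both agents or vehicle replicate 2, and none was lower without replicate 2 of both agents or vehicle replicate 1. The shares over all genes tested were 9.54% higher and 7.25% lower. Kruppel-like, C/EBP and Tribbles genes had 4 of 18 higher and 2 lower, led by Trib1, a pseudokinase that promotes degradation of C/EBP proteins (log2 fold change 2.35 ± 0.18, adjusted p = 2.28e-09), and by Cebpd, a C/EBP factor, at 76.8, 47.6 and 76.5 CPM with both agents and 16.4, 7.01 and 18.8 CPM with vehicle (log2 fold change 2.25 ± 0.26, adjusted p = 1.46e-06). Collagens other than type I had 5 of 18 higher and 1 lower, led by Col5a3 (log2 fold change 2.13 ± 0.25, adjusted p = 1.45e-06), and numbered 2 higher without replicate 3 of both agents, 3 higher and 3 lower without vehicle replicate 2, and 8 higher and none lower without vehicle replicate 3. Osteocyte markers had 5 of 12 higher and 1 lower (3 higher without replicate 2 of both groups), and RANKL-related genes 3 of 10 higher and 1 lower.

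Osteocyte markers summed to 1043 to 1212 CPM with both agents and 941 to 1076 CPM with vehicle. Of these, Dmp1 averaged 4.1 CPM with both agents and 2.0 CPM with vehicle, and Phex 0.638 and 0.392 CPM. Sost, Mepe and Fgf23 were near 0, so the sum came mainly from other members and does not measure osteocyte identity. Summed levels of 10 adipocyte markers were 3.36 to 4.11 CPM with both agents and 7.57 to 9.72 CPM with vehicle, and 12 macrophage and blood markers summed to 42.8 to 49.8 CPM with both agents and 30.5 to 33.8 CPM with vehicle. Of those, Cd14, a lipopolysaccharide co-receptor (log2 fold change 0.88 ± 0.13, adjusted p = 2.14e-05), and Fcer1g, an Fc receptor subunit (log2 fold change 1.73 ± 0.24, adjusted p = 1.90e-05), were called higher, while Ptprc, Adgre1 and Itgam were below the filter and Tyrobp had no count in the 6 libraries. Of the adipocyte markers Plin4 fell, Adipoq and Plin1 were below the filter and Retn had no count, and 2 were lower without vehicle replicate 3. Chondrocyte, endothelial and skeletal muscle markers summed to at most 10.1 CPM in any library of either group, with none of 17 tested members called (1 chondrocyte marker lower without vehicle replicate 2). Col9a1, Cldn5, Myod1 and Myog had no count in the 6 libraries, and the part of such cells in the results was not tested.

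The 8 h response was set against the response to both agents over vehicle at 2 h by the difference of the effects. It differed in 1590 genes (9.68% of those tested), of which 915 (5.57%) were more positive and 675 (4.11%) more negative at 8 h. At 2 h itself, 19.9% of genes were called, 9.88% higher and 10% lower. Inmt rose by 5.99 on the log2 scale at 8 h and by 1.83 at 2 h (difference 4.16 ± 0.45, adjusted p = 1.63e-06), and Cbs by 4.29 and 0.72 (difference 3.56 ± 0.27, adjusted p = 9.27e-09). Enpp3 (2.97 ± 0.16, adjusted p = 9.51e-11), Elfn1 (3.73 ± 0.71, adjusted p = 0.00136), Galnt15 (2.92 ± 0.20, adjusted p = 2.70e-09), a glycosyltransferase, and Acpp (2.81 ± 0.20, adjusted p = 5.17e-09), an acid phosphatase, were the other largest positive differences. For Galnt15 and Acpp, the 2 h effect did not pass the test, at log2 fold changes of -0.03 and 0.31.

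**Figure D3:**
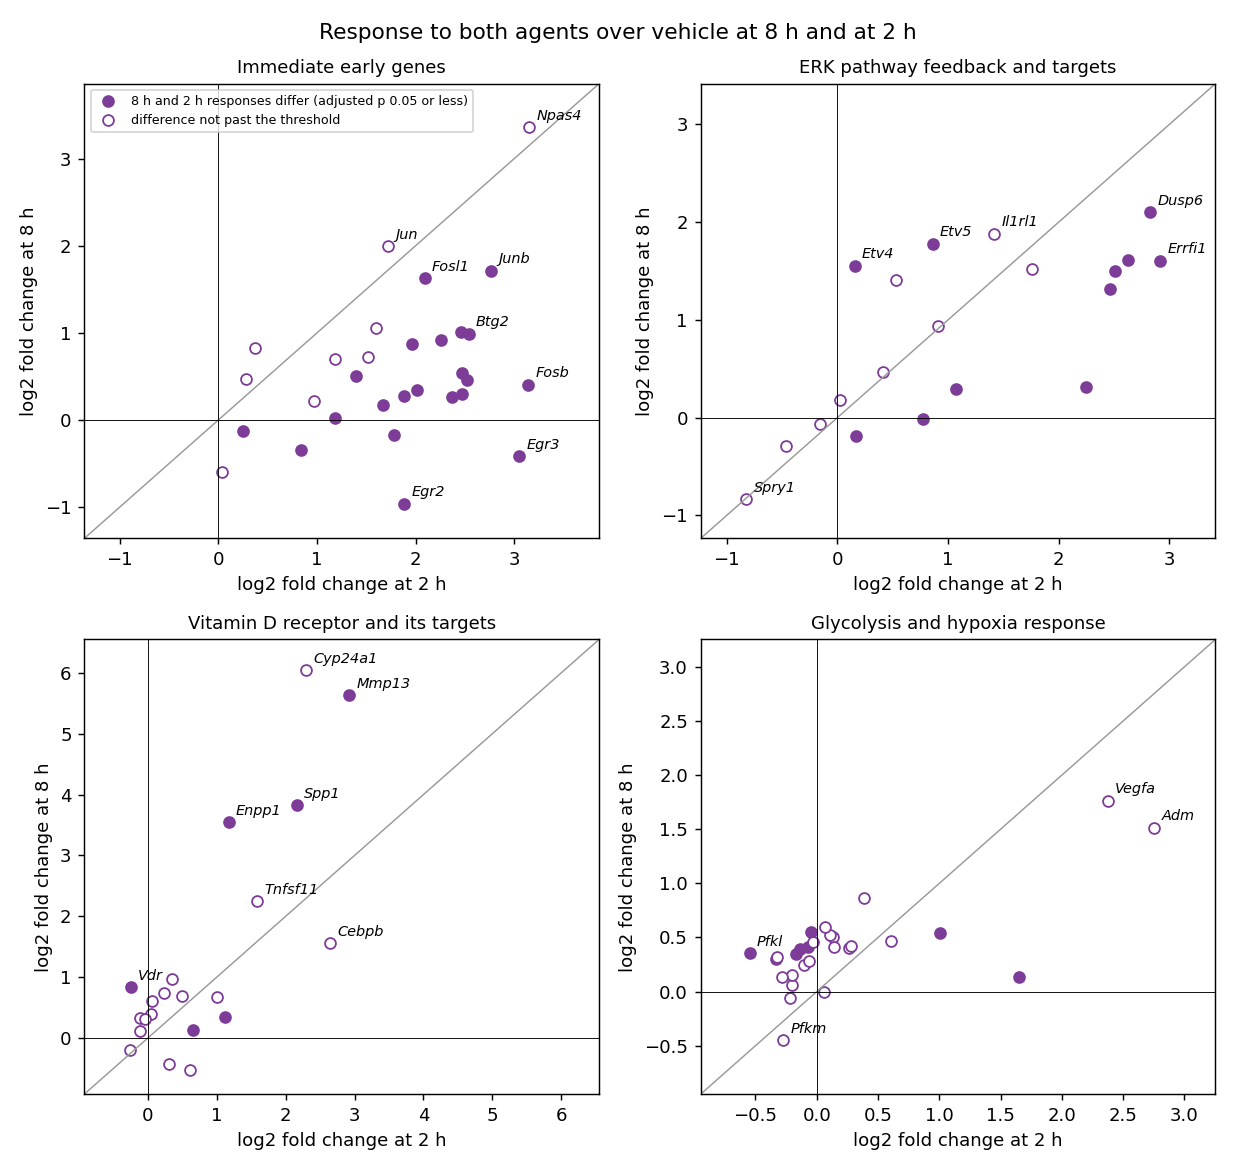
Log2 fold changes of both agents over vehicle at 2 h (horizontal) and 8 h (vertical) for the tested members of 4 lists, with filled points where the responses differ at an adjusted p of 0.05 or less and a grey line of equal response. In the immediate early list 21 of 30 genes lie significantly below the line, while Mmp13, Spp1 and Enpp1 lie above it.

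Immediate early genes turned in the opposite sense. At 2 h 27 of the 30 were higher, with a median of 1.88, against 14 with a median of 0.46 at 8 h, and 21 had a negative difference while none had a positive one. Egr3 averaged 78.3 ± 8.98 CPM at 2 h with both agents, against 9.47 ± 2.198 CPM with vehicle, and 5.08 ± 1.39 CPM at 8 h with both agents, against 6.76 ± 2.94 CPM with vehicle (SD, n = 3; difference -3.46 ± 0.34, adjusted p = 6.24e-07). Egr2 went past its vehicle level, so that it was higher at 2 h and lower at 8 h (difference -2.85 ± 0.15, adjusted p = 9.51e-11), and Inhba did the same (difference -2.77 ± 0.17, adjusted p = 6.78e-10). Fosb was higher at 2 h and did not pass at 8 h (difference -2.73 ± 0.31, adjusted p = 3.05e-06). Tgm5 (-2.40 ± 0.42, adjusted p = 0.000588) and Reps2 (-2.36 ± 0.38, adjusted p = 0.000231), an endocytic adaptor, completed the largest negative differences, and the call for Reps2 was lost with counts rescaled by length (-1.54). Among ERK genes 9 of 20 had a negative difference and 2, Etv4 and Etv5, a positive one. Of glycolysis and hypoxia genes, 6 of 28 had a positive and 2 a negative difference.

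The libraries labelled with single agents at 8 h show how the levels with both agents compare with each. At an adjusted p of 0.05 or less, 3765 genes differed between both agents and the libraries labelled LPA (22.9% of those tested, 14% higher and 8.91% lower), and 1507 between both agents and those labelled 1,25D (9.18%, 5.74% higher and 3.43% lower). Cyp24a1 had 25, 48 and 29 counts in the libraries labelled LPA and 0, 1 and 0 in those labelled 1,25D, beside 35, 28 and 24 with both agents. These comparisons share the libraries with both agents and are given by gene.

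**Figure D4:**
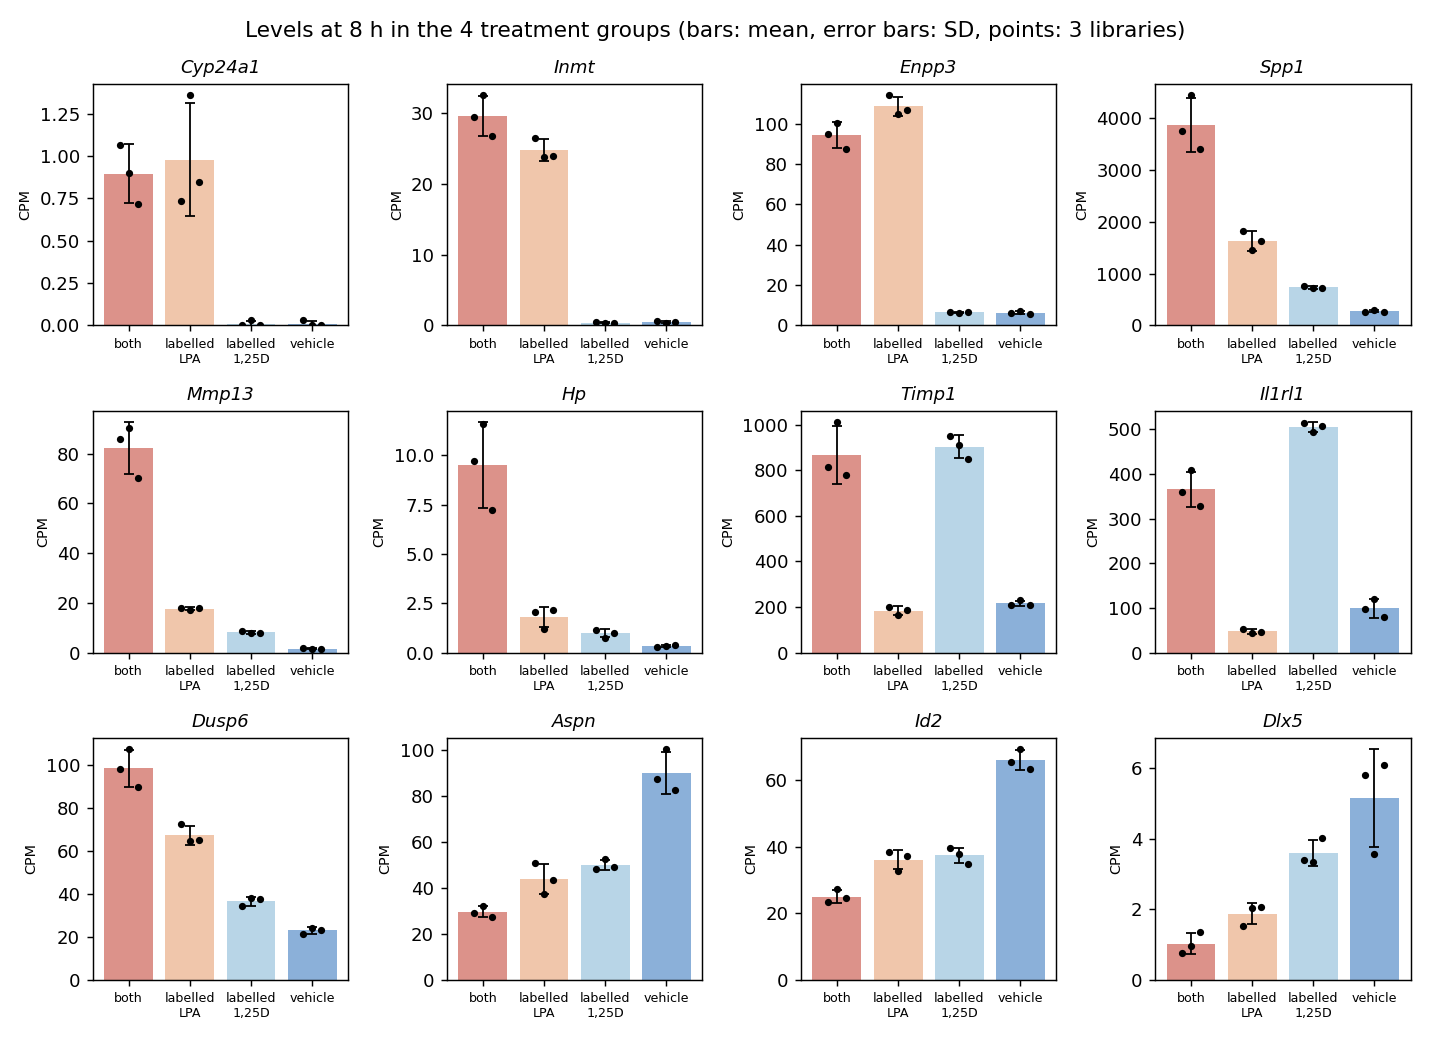
CPM of 12 genes at 8 h with both agents, in libraries labelled LPA, in libraries labelled 1,25D and with vehicle; bars are means, error bars SD and points the 3 libraries of a group. Mmp13 is highest with both agents, Inmt and Enpp3 are high with both agents and in the libraries labelled LPA, and Timp1 and Il1rl1 with both agents and in those labelled 1,25D.

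One set of genes stood near the level of the libraries labelled LPA. Inmt averaged 29.6 ± 2.88 CPM with both agents, 24.8 ± 1.53 CPM in the libraries labelled LPA, 0.406 ± 0.101 CPM in those labelled 1,25D and 0.461 ± 0.115 CPM with vehicle (SD, n = 3 in each group here and below). It differed from the libraries labelled 1,25D (log2 difference 6.17 ± 0.26, adjusted p = 1.87e-13) and not past the threshold from those labelled LPA (log2 difference 0.26 ± 0.18, adjusted p = 0.338). Krt17, Tnni1 and Enpp3 had the same pattern of calls. Cbs (log2 difference -0.91 ± 0.14, adjusted p = 6.51e-05) and Elfn1 (log2 difference -0.81 ± 0.29, adjusted p = 0.0456) were lower with both agents than in the libraries labelled LPA. Fst did not differ past the threshold from the libraries labelled LPA, at a log2 difference of 0.03, and stood above those labelled 1,25D by 2.37.

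Another set stood near the level of the libraries labelled 1,25D. Timp1 averaged 867 ± 125 CPM with both agents, 185 ± 18.1 CPM in the libraries labelled LPA, 904 ± 49.2 CPM in those labelled 1,25D and 216 ± 12.2 CPM with vehicle. It exceeded the libraries labelled LPA (log2 difference 2.23 ± 0.10, adjusted p = 3.59e-12) and did not differ past the threshold from those labelled 1,25D (log2 difference -0.06 ± 0.10, adjusted p = 0.734). Il1rl1 averaged 366 ± 39.97 CPM with both agents, 47.5 ± 4.79 CPM in the libraries labelled LPA, 505 ± 10.8 CPM in those labelled 1,25D and 99.2 ± 20.7 CPM with vehicle, and was lower with both agents than in those labelled 1,25D (log2 difference -0.47 ± 0.11, adjusted p = 0.00808). Tspan11 and Ttll11 likewise exceeded the libraries labelled LPA and did not differ past the threshold from those labelled 1,25D. Tnfrsf11b averaged 1.75 ± 0.603 CPM with both agents, 0.622 ± 0.354 CPM in the libraries labelled LPA, 7.02 ± 0.4595 CPM in those labelled 1,25D and 2.02 ± 0.236 CPM with vehicle, so that its level with both agents lay between the levels with the single labels.

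Other genes exceeded each single label. Mmp13 averaged 82.2 ± 10.4 CPM with both agents, 17.6 ± 0.527 CPM in the libraries labelled LPA, 8.18 ± 0.559 CPM in those labelled 1,25D and 1.65 ± 0.143 CPM with vehicle (log2 difference 2.22 ± 0.17, adjusted p = 8.91e-09 against the libraries labelled LPA and log2 difference 3.33 ± 0.18, adjusted p = 7.98e-12 against those labelled 1,25D). Spp1 averaged 3867 ± 528 CPM with both agents, 1630 ± 188 CPM in the libraries labelled LPA, 732 ± 27.8 CPM in those labelled 1,25D and 272 ± 20.3 CPM with vehicle. It exceeded the libraries labelled LPA by 1.25 and those labelled 1,25D by 2.40 on the log2 scale. Hp, Nxph3, Sprr1a, Enpp1, Dusp6, Etv5 and Loxl2 were also called higher than each single label. In the other direction, Aspn, Id2, Dlx5, Dchs2, Trabd2b, Colq, Fgf18 and Plin4 were called lower than each. Aspn averaged 29.6 ± 2.47 CPM with both agents, 43.96 ± 6.64 CPM in the libraries labelled LPA, 49.95 ± 2.298 CPM in those labelled 1,25D and 90.1 ± 9.09 CPM with vehicle.

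Flrt1, Clca2, Wscd2, Crocc2, Sned1 and Olfm2 were the genes furthest below the libraries labelled LPA. Wscd2 averaged 6.93 ± 1.79 CPM with both agents, 26.8 ± 4.75 CPM in the libraries labelled LPA, 5.54 ± 1.27 CPM in those labelled 1,25D and 6.36 ± 2.29 CPM with vehicle, and did not differ past the threshold from vehicle (log2 fold change 0.12 ± 0.23, adjusted p = 0.797). Flrt1, Clca2 and Olfm2 were not called against vehicle either, and Clca2 and Olfm2 were higher with both agents than in the libraries labelled 1,25D. Sned1 was lower with both agents than with vehicle (log2 fold change -0.90 ± 0.25, adjusted p = 0.0121), as was Crocc2, just inside the threshold (log2 fold change -0.91 ± 0.31, adjusted p = 0.0497). Furthest below the libraries labelled 1,25D were Tnfrsf11b, Kif26b, Dlx5, Trabd2b, Spry1 and Wnt9a. Kif26b, a kinesin family member, averaged 6.52 ± 2.097 CPM with both agents, 8.81 ± 1.39 CPM in the libraries labelled LPA, 24.8 ± 2.18 CPM in those labelled 1,25D and 17.2 ± 7.698 CPM with vehicle (log2 difference -1.93 ± 0.26, adjusted p = 1.82e-05 against the libraries labelled 1,25D). Wnt9a did not differ past the threshold from vehicle, and its call against the libraries labelled 1,25D (log2 difference -1.61 ± 0.44, adjusted p = 0.0225) was lost without replicate 1 (-1.72) or 2 (-1.37) of both agents or replicate 1 (-1.54) or 3 (-1.62) of those labelled 1,25D.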

How the data were processed

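RNA from Ocy454 cells was taken with a silica column kit and made into libraries with a DNBSEQ kit, per the labels' protocols. The deposited tables hold estimated counts and TPM per transcript as made by the authors; the build mm39 is given in the submitters' processing notes, and the sources used here do not name the quantification tool. Deposited TPM served only for 1 alternative, with counts rescaled by length. Transcripts were summed to genes through GENCODE names (135078 of 139145 matched), the sums were rounded, and 16424 genes passed edgeR's filter with a minimum count of 10. edgeR 4.0.16 (R 4.3.3) fitted all 24 libraries with 1 mean per group, TMM scaling and the quasi-likelihood test, with Benjamini-Hochberg adjustment at 0.05. The 24 libraries held 33.0 to 33.8 M counts, and intervals on summed counts cover counting error only. Leading genes were those called averaging 1 CPM or more across both groups, with a gene name that is no clone or pseudogene and no overlap of the groups, ranked by fold, 15 in each direction. Each other comparison gave the 6 furthest in each direction, without the overlap rule for the time difference. List members were named by smallest p, up to 6 in each direction, while Bdkrb1, Ccl20, Cx3cl1, Dlx6, Pgk1, Runx2, Aldoa, Bnip3, Etv4, Npas4, Pfkl and Pkm were chosen after their values were seen. The members and the gene lists were chosen with earlier results of these data known. On simulated counts for both agents against vehicle at 8 h the test recovered 84 of 100 genes changed by 1 log2 unit and 98 of 100 changed by 2, with 8 false calls, over 16003 genes. The changed genes averaged at least 1 CPM, and counts were drawn independently, without shifts shared by the genes of a library. These rates therefore do not carry over to genes of lower level or to libraries of unusual composition. Whether they hold where the compared groups spread more than the others, as at 8 h here, was not tested. DESeq2 1.42.0, other scaling, no filter, a fit of only the compared groups, a replicate block and leaving out each library were tried as alternatives.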

Additional observations from a re-analysis of the deposited data

Results flagged for a closer look

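The response to both agents over vehicle differed between 8 h and 2 h in 1590 genes by edgeR's quasi-likelihood test of the difference itself, and the following values are the log2 response at 8 h minus that at 2 h. The most positive were Inmt (4.16), Elfn1 (3.73), Cbs (3.56), Enpp3 (2.97), Galnt15 (2.92) and Acpp (2.81). The most negative were Egr3 (-3.46), Egr2 (-2.85), Inhba (-2.77), Fosb (-2.73), Tgm5 (-2.40) and Reps2 (-2.36). They stand here because the effect of the same treatment differed between the time points.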

How the results depend on the processing

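The 30 leading genes kept their direction and call under all 13 alternatives each. Of 297 called genes named or listed, 140 lost their call when only the compared groups were fitted, 43 with counts rescaled by length, 30 without the filter and 0 in DESeq2. Fitting only the compared groups leaves fewer libraries and only the spread of those groups. It called 988 genes for both agents against vehicle, 743 for the time difference, 1263 against the libraries labelled LPA and 807 against those labelled 1,25D. In that fit the NF-kB list had 7 higher, the LPA list 2 higher and 1 lower, the Wnt list 2 higher and 2 lower, the protease list 4 higher and 1 lower, and the cholesterol list 1 higher and 1 lower. Without the filter, 2386 genes differed from the libraries labelled 1,25D (36.9% higher, against 62.6% with it), and against those labelled LPA 46.1% were higher, against 61.1% with it. Counts rescaled by length called 980 genes for the time difference. The causes of these last shifts were not tested. Leaving out 1 library gave 2043 to 2748 genes against vehicle, 1145 to 1628 for the time difference, 1943 to 4263 against the libraries labelled LPA and 886 to 1936 against those labelled 1,25D. Against the libraries labelled LPA, 1972 were called without replicate 2 of both agents and 1943 without replicate 2 of the libraries labelled LPA. Against those labelled 1,25D, 897 were called without replicate 2 and 1936 without replicate 3 of both agents, and 975, 954 and 886 without replicate 1, 2 or 3 of those labelled 1,25D. Without replicate 2 of both groups, 2251 genes differed from vehicle, 2048 of them shared with the 2758.

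Whether the replicate numbers pair the samples is not known. Deviations from the group means correlated at 0.071, 0.355 and 0.253 between same-numbered libraries of both agents and vehicle at 8 h. Between libraries of different number in these groups they lay from -0.31 to 0.122. Between both agents and the libraries labelled LPA, same-numbered libraries gave -0.077, -0.251 and -0.002. With the replicate block, 2716 genes differed from vehicle (2612 shared), 1477 in the time difference, 3846 from the libraries labelled LPA and 1501 from those labelled 1,25D. For Fgf23, the counts were too few and too uneven between replicates to tell whether the groups differed.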

Other observations

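Krt80, a keratin gene chosen after its values were seen, averaged 6.29 CPM with both agents and 2.56 CPM with vehicle (log2 fold change 1.29 ± 0.19, edgeR, adjusted p = 2.81e-05), beside the rises of Krt17 and Krt13. The keratin genes Krt16 and Krt88 were also called higher, while Krt14, Krt19, Krt7, Krt8 and Krt10 were not called. Reads shared between keratin genes make single values uncertain.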
